A study of Homo sapiens with 6 samples.

Results

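The molecular chaperones described here are the HSP70 and HSP110 proteins, HSP90, the J-domain proteins (symbols beginning DNAJA, DNAJB and DNAJC) and the chaperonins of the mitochondria and the cytosol. Members were the rows of the array table whose only gene symbol in the platform annotation carries one of these family names, and the rule itself uses no measured value. There were 54 such rows, for 53 genes, out of 15492 rows in all and 12616 rows with 1 symbol. A further 23 rows list a chaperone together with another gene, and 21 chaperone genes, among them HSP90AB1, HSP90B1, HSPA1A, HSPA1B, HSPA6, HSPA9 and TCP1, occur only in such rows and are given no value.

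Chaperones bind unfolded or partly folded proteins. HSP70 proteins bind and release short stretches of client protein in a cycle of ATP hydrolysis, which J-domain proteins stimulate and nucleotide exchange factors, the HSP110 proteins among them, complete. HSP90 takes over many clients from HSP70, and the chaperonins enclose a client in the cavity of a ring, CCT in the cytosol for actin and tubulin and HSPD1 with its lid HSPE1 in mitochondria. Some of these genes are transcribed at all times, and others are induced by the factor HSF1 through repeated GAA and TTC blocks, the heat shock element, when unfolded protein accumulates.

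RNA levels were measured on Affymetrix whole-transcript arrays in 3 tet-on derivatives of HEK293, an established cell line from human embryonic kidney. The ubAPE1 line carries an inducible fusion of ubiquitin to APE1, the wtAPE1 line an inducible wild-type APE1, and the vector line only the empty pcDNA-FRT vector. APE1, encoded by APEX1, is a base excision repair endonuclease. Each line was sampled with doxycycline (dox+, 2 µg/ml for 16 h), which switches the transgene on, and without it (dox-). The medium of all 6 groups was DMEM/F12, supplemented with serum, glutamine and puromycin (1 µg/ml). Each group is 1 deposited column of log2 levels, which the authors averaged over 3 biological replicates, so the spread between replicates is not known here. Each construct is represented by 1 line, so a difference between lines and a difference between constructs cannot be told apart.

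Medians of the 6 columns lay between 6.07 and 6.28 on the log2 scale. APEX1 had levels of 10.58 in ubAPE1 dox+ and 9.82 in ubAPE1 dox-, 10.67 in wtAPE1 dox+ and 9.50 in wtAPE1 dox-, and 9.66 in vector dox+ and 9.54 in vector dox-, so it was higher with doxycycline in both lines that carry an APE1 transgene. The ubAPE1 dox+ column stood closer to the wtAPE1 columns (Pearson r across the 11619 analysed rows of 0.990 with dox+ and 0.988 with dox-) than to its own dox- column (0.971), whereas the columns within the wtAPE1 and vector lines correlated at 0.987 and 0.988. Rows are not independent replicates, and these values are descriptions. Of 8 analysed kidney epithelium markers, EPCAM, KRT19 and CDH2 passed the limma test as lower in both APE1 lines than in the vector line and LRP2 in the wtAPE1 line, so 3 of 8 passed in the ubAPE1 line and 4 of 8 in the wtAPE1 line (1.39% and 2.11% of all rows). PAX8 and PAX2 lay above the median row in both, at 0.25 and 0.17 in ubAPE1 cells and at 0.45 and 0.31 in wtAPE1 cells. Of 3 neuron markers, ENO2 passed as lower in both APE1 lines and NEFL in the wtAPE1 line, and 0 of 4 fibroblast and smooth muscle markers and 0 of 2 blood cell markers passed. Their part in the results below was not tested.

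Of the members, 46 rows, each for a different gene, had a mean level that reached the 25th percentile of the row means (5.03 log2) and were analysed. They comprise 10 HSP70 and HSP110 genes, HSP90AA1, the mitochondrial pair HSPD1 and HSPE1, 7 CCT subunits, 3 DNAJA, 7 DNAJB and 16 DNAJC genes. The other 8 rows, for CCT6B, DNAJB13 (2 rows), DNAJB3, DNAJB8, DNAJC22, DNAJC27 and HSPA1L, had levels between 2.90 and 5.20 and lay below that limit. A response is the dox+ level minus the dox- level of a line. Because the columns are shifted against each other, responses and line differences are given relative to the median row, that is, after subtraction of the median difference over all analysed rows. Levels are printed as deposited, and a column called lowest or highest is so in the deposited levels. The median of the analysed rows was itself lowest in wtAPE1 dox- (6.56) and ubAPE1 dox+ (6.58), and highest in vector dox- (6.81). Responses have no replicate and no test, and a size of at least 1.5-fold is used only to describe them.

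HSPA8, the constitutive cytosolic HSP70, carried the largest positive response among the members. Its level was 12.62 in ubAPE1 dox+ and 12.34 in ubAPE1 dox-, 12.58 in wtAPE1 dox+ and 11.76 in wtAPE1 dox-, and 12.26 in vector dox+ and 12.36 in vector dox-. The wtAPE1 dox- column was the lowest of the 6, and both APE1 lines with doxycycline were the highest. Relative to the median row the response was 0.41 in the ubAPE1 line and 0.75 in the wtAPE1 line, against -0.05 in the vector line. The wtAPE1 value, a 1.68-fold difference, ranked 12 of 11619 rows, and the ubAPE1 value, 1.32-fold, ranked 683. With doxycycline HSPA8 lay 0.39 above the vector line in wtAPE1 cells, and without doxycycline the difference was -0.38, so the wtAPE1 line stood on opposite sides of the vector line in the presence and absence of the drug. After quantile normalization the wtAPE1 response of HSPA8 was 0.49, short of 1.5-fold. The doxycycline effect common to the lines was 0.36 ± 0.18 (SE, 6 columns) and did not pass limma's test (adjusted p = 1, unadjusted p = 0.0955). In the gene annotation HSPA8 gives its name to 20 pseudogenes, and how far they add to its row was not tested.

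The promoters of HSPA8, DNAJB1 and DNAJA1 are shown because HSPA8 and DNAJB1, its J-domain partner, had the largest wtAPE1 responses of the members, while HSPA8 and DNAJA1 were the members whose RefSeq promoters held an extended heat shock element. The sequences are RefSeq's on GRCh38.p14, each the 250 bases before the transcription start, written 5′ to 3′ along the gene, with matches in capitals to GAANNTTC and to an extended form, in which a further GAA block follows GAANNTTC after NN, or a further TTC block precedes it by NN. HSPA8 lies on chr11:123062137-123062386 (minus strand), DNAJA1 on chr9:33025023-33025272 (plus strand) and DNAJB1 on chr19:14529272-14529521 (minus strand).
HSPA8: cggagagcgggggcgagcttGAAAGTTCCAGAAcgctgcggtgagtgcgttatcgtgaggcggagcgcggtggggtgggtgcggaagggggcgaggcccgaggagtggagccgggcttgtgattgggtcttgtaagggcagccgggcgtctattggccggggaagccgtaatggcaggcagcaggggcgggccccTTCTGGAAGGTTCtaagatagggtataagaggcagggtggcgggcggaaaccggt
DNAJA1: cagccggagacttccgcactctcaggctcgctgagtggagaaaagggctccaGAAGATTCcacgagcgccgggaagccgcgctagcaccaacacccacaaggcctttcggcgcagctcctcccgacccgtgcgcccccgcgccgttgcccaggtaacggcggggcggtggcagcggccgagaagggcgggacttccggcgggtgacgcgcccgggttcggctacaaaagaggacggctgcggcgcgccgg
DNAJB1: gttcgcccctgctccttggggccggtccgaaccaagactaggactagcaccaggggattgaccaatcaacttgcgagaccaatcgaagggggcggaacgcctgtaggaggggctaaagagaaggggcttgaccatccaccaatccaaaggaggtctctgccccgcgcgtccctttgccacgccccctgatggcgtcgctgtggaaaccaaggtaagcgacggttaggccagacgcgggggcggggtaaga
The HSPA8 window holds 2 extended matches, from -230 to -218 and from -55 to -43 relative to the start. DNAJA1 holds GAANNTTC from -198 to -191 and an extended match from +4 to +16, past the printed stretch. Over the full 300-base windows, which run 50 bases past the start and were searched on both strands, GAANNTTC occurred in 3 of the 46 promoters that the table held for the 53 member genes (6.52%; HSPA8, DNAJA1 and HSPA1L, which lay below the level limit) and in 6.87% of all 27305 promoters. The extended form, which contains GAANNTTC, occurred in 2 of 46 (4.35%) and in 0.487% of all. The DNAJB1 window held none of these letters, which says nothing of the factor. Only the window at this start was searched for DNAJB1, and whether stretches before other starts of the gene hold the element was not tested. HSPA8 and DNAJA1, which both hold the extended form, had unlike values, since the DNAJA1 response was -0.04 in the ubAPE1 line and -0.12 in the wtAPE1 line, against 0.12 in the vector line.

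Over the 46 members the doxycycline response ran between -0.75 and 0.41 in the ubAPE1 line, between -0.29 and 0.75 in the wtAPE1 line and between -0.38 and 0.34 in the vector line. At 1.5-fold, 4 of 46 members were past the size rule in the ubAPE1 line, all lower (5.03% of all rows in either direction, 3.81% lower). The same held for 1 of 46 in the wtAPE1 line, HSPA8 (0.93% of all rows, 0.508% higher), and for 0 of 46 in the vector line (0.947%). The members' median response was -0.13 in the ubAPE1 line, with 33 of 46 below the median row, 0.07 in the wtAPE1 line, with 17 of 46 below, and -0.02 in the vector line, with 27 of 46 below; the median of all rows is 0 by construction. The median shift that was subtracted was -0.13 in the ubAPE1 line, 0.07 in the wtAPE1 line and -0.05 in the vector line. In all 3 lines DNAJC12 and DNAJC30 lay above the median row (2 of 46, against 7.69% of all rows), and CCT8, DNAJB5, DNAJB12, DNAJC16, HSPA12A and HSPE1 lay below it (6 of 46, against 7.85%).

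**Figure D1:**
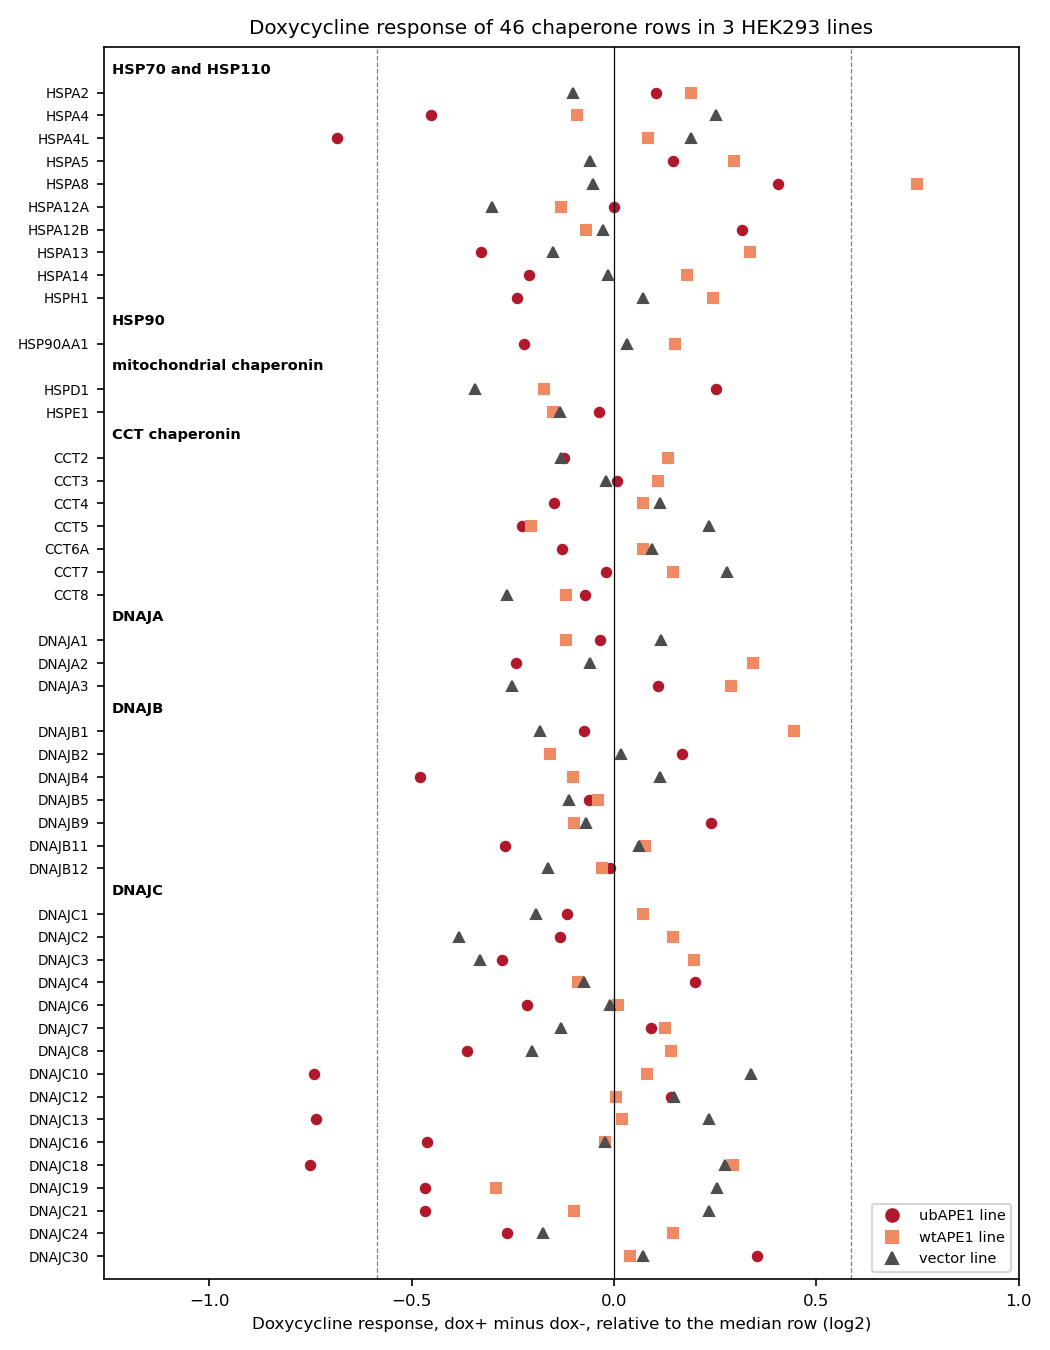
Doxycycline response (dox+ minus dox-, log2, relative to the median row) of each of the 46 analysed chaperone rows, by class, in the ubAPE1 (circles), wtAPE1 (squares) and vector (triangles) lines; dashed lines mark 1.5-fold. Each point is 1 difference between averaged columns. HSPA8 in the wtAPE1 line (0.75) lies past 1.5-fold on the right, and HSPA4L, DNAJC10, DNAJC13 and DNAJC18 in the ubAPE1 line lie past it on the left.

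Within the HSP70 and HSP110 class the median response was -0.10 in the ubAPE1 line, 0.18 in the wtAPE1 line and -0.04 in the vector line. HSPA4L, an HSP110 nucleotide exchange factor, had levels of 6.70 in ubAPE1 dox+ and 7.51 in ubAPE1 dox-, 7.07 in wtAPE1 dox+ and 6.92 in wtAPE1 dox-, and 7.87 in vector dox+ and 7.73 in vector dox-. The ubAPE1 dox- column lay closer to the vector columns than to the wtAPE1 columns, and the ubAPE1 dox+ column below both wtAPE1 columns. The response was -0.69 in the ubAPE1 line (1.61-fold lower), 0.08 in the wtAPE1 line and 0.19 in the vector line. Its paralogue HSPA4 had a response of -0.45 in the ubAPE1 line, -0.09 in the wtAPE1 line and 0.25 in the vector line, and HSPH1, the other HSP110 member, had -0.24, 0.24 and 0.07 in the same order of lines. HSPA5, the HSP70 of the endoplasmic reticulum, had 0.15 in the ubAPE1 line and 0.30 in the wtAPE1 line, against -0.06 in the vector line. HSPA13, a microsomal HSP70, had responses of opposite sign in the APE1 lines, with -0.33 in ubAPE1 and 0.34 in wtAPE1 cells, against -0.15 in vector cells. The remaining members HSPA2, HSPA12A, HSPA12B and HSPA14 had responses between -0.30 and 0.32 over the 3 lines.

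HSP90AA1, the stress-inducible cytosolic HSP90, was the only HSP90 gene with a row of its own. Its level was 12.14 in ubAPE1 dox+ and 12.49 in ubAPE1 dox-, 12.42 in wtAPE1 dox+ and 12.20 in wtAPE1 dox-, and 12.37 in vector dox+ and 12.38 in vector dox-. In these deposited levels, which still hold the shift between columns, the ubAPE1 line had both the highest and the lowest of the 6 columns. Relative to the median row the response was -0.22 in the ubAPE1 line, 0.15 in the wtAPE1 line and 0.03 in the vector line.

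The mitochondrial chaperonin and its lid did not share one pattern. HSPD1, the ring protein, had levels of 7.33 in ubAPE1 dox+ and 7.20 in ubAPE1 dox-, 7.32 in wtAPE1 dox+ and 7.42 in wtAPE1 dox-, and 6.99 in vector dox+ and 7.38 in vector dox-. Its response was 0.25 in ubAPE1, -0.17 in wtAPE1 and -0.34 in vector cells, and the vector dox+ column was the lowest of the 6. HSPE1 had levels of 7.996 in ubAPE1 dox+ and 8.16 in ubAPE1 dox-, 8.26 in wtAPE1 dox+ and 8.34 in wtAPE1 dox-, and 8.17 in vector dox+ and 8.35 in vector dox-, with each dox+ column below the dox- column of its line. HSPD1 has 22 and HSPE1 28 pseudogenes named after it in the gene table.

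The 7 CCT subunits, which build the double-ring chaperonin of the cytosol together with TCP1, were all short of 1.5-fold in each of the 3 responses. Their responses ran between -0.23 and 0.01 in the ubAPE1 line, between -0.20 and 0.14 in the wtAPE1 line and between -0.26 and 0.28 in the vector line. CCT5 had levels of 10.13 in ubAPE1 dox+ and 10.48 in ubAPE1 dox-, 10.12 in wtAPE1 dox+ and 10.25 in wtAPE1 dox-, and 10.85 in vector dox+ and 10.66 in vector dox-. Both vector columns were above all 4 columns of the APE1 lines. CCT7 had levels of 11.54 in ubAPE1 dox+ and 11.69 in ubAPE1 dox-, 11.59 in wtAPE1 dox+ and 11.37 in wtAPE1 dox-, and 11.81 in vector dox+ and 11.58 in vector dox-, and the lines overlapped. All 7 subunits lay above the median row in the ubAPE1 line against the wtAPE1 line, by 0.05 to 0.12, as did 31 of all 46 members and, by construction of the median, 5809 of 11619 rows. By state, 5 of 7 subunits lay above it with doxycycline (median 0.0072; 21 of 46 members) and 7 of 7 without (median 0.15; 34 of 46 members).

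Among the J-domain proteins of class A, DNAJA1 and DNAJA2 serve cytosolic HSP70 and DNAJA3 serves the mitochondrial one. DNAJA2 had levels of 7.81 in ubAPE1 dox+ and 8.18 in ubAPE1 dox-, 7.90 in wtAPE1 dox+ and 7.48 in wtAPE1 dox-, and 7.95 in vector dox+ and 8.05 in vector dox-. DNAJA3 had levels of 7.85 in ubAPE1 dox+ and 7.87 in ubAPE1 dox-, 7.87 in wtAPE1 dox+ and 7.51 in wtAPE1 dox-, and 7.79 in vector dox+ and 8.09 in vector dox-. In both genes the wtAPE1 dox- column was the lowest, and the wtAPE1 response was 0.34 for DNAJA2 and 0.29 for DNAJA3.

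DNAJB1, the cytosolic J-domain partner of HSPA8, had its highest response in the wtAPE1 line, as HSPA8 did. Its level was 8.41 in ubAPE1 dox+ and 8.62 in ubAPE1 dox-, 8.49 in wtAPE1 dox+ and 7.97 in wtAPE1 dox-, and 8.38 in vector dox+ and 8.61 in vector dox-. Again the wtAPE1 dox- column was the lowest, and the wtAPE1 dox+ column lay within the range of the other lines. The response was -0.07 in the ubAPE1 line, 0.44 in the wtAPE1 line (rank 243 of 11619) and -0.18 in the vector line. DNAJB4, another cytosolic J-domain protein, had levels of 5.58 in ubAPE1 dox+ and 6.19 in ubAPE1 dox-, 5.73 in wtAPE1 dox+ and 5.76 in wtAPE1 dox-, and 6.10 in vector dox+ and 6.04 in vector dox-, with the ubAPE1 dox- column again near the vector columns. Of the members of the endoplasmic reticulum, DNAJB9 had a response of 0.24 and DNAJB11 one of -0.27 in the ubAPE1 line.

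**Figure D2:**
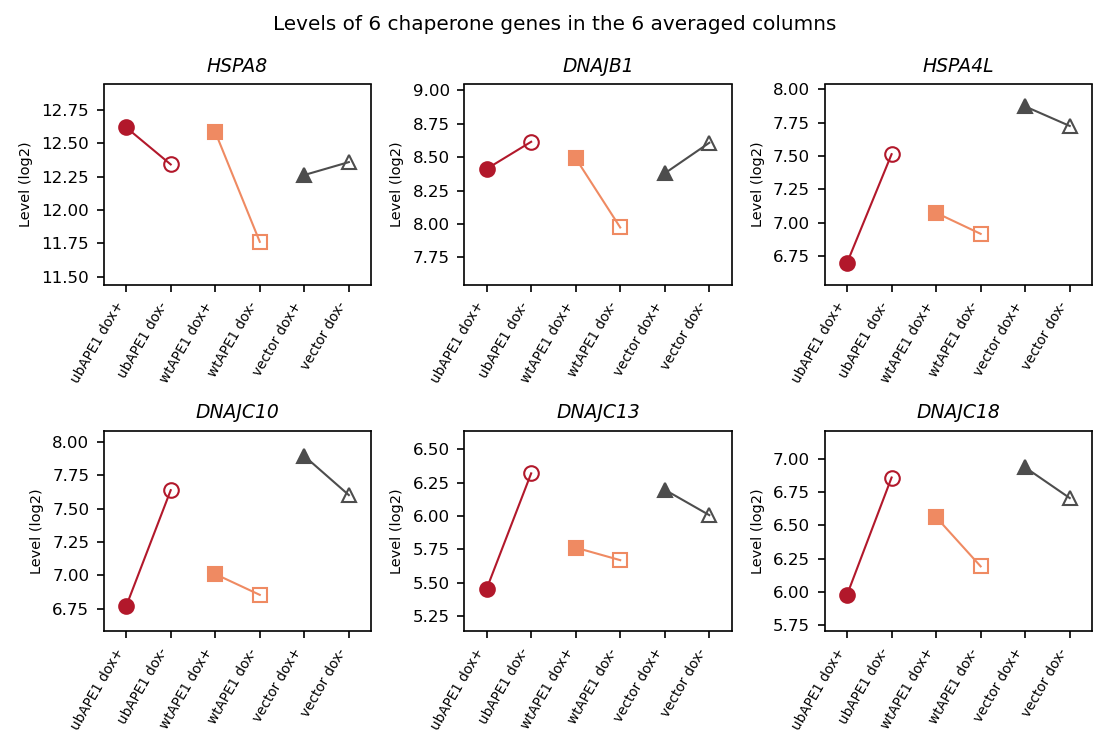
Levels (log2) of HSPA8, DNAJB1, HSPA4L, DNAJC10, DNAJC13 and DNAJC18 in the 6 averaged columns, each line's dox+ column (filled) left of its dox- column (open) and joined to it; each panel has its own axis range. For HSPA8 and DNAJB1 the wtAPE1 dox- column is the lowest (11.76 and 7.97), and for the other 4 genes the ubAPE1 dox+ column is the lowest (6.70, 6.77, 5.45 and 5.98). Levels are as deposited, so the shift between columns remains.

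The DNAJC class, in which the J domain is joined to unrelated domains and serves many compartments, held 3 of the 4 members past 1.5-fold in the ubAPE1 response. Its median response was -0.27 in the ubAPE1 line, with 12 of 16 genes below the median row, 0.05 in the wtAPE1 line, with 4 of 16 below, and -0.02 in the vector line, with 9 of 16 below. DNAJC10, which reduces disulfides in the endoplasmic reticulum, had levels of 6.77 in ubAPE1 dox+ and 7.64 in ubAPE1 dox-, 7.01 in wtAPE1 dox+ and 6.85 in wtAPE1 dox-, and 7.89 in vector dox+ and 7.60 in vector dox-. DNAJC13, an endosomal sorting protein, had levels of 5.45 in ubAPE1 dox+ and 6.32 in ubAPE1 dox-, 5.76 in wtAPE1 dox+ and 5.67 in wtAPE1 dox-, and 6.20 in vector dox+ and 6.01 in vector dox-. In both genes the ubAPE1 dox+ column was the lowest and the ubAPE1 dox- column lay with the vector columns or above them. DNAJC18 had levels of 5.98 in ubAPE1 dox+ and 6.86 in ubAPE1 dox-, 6.56 in wtAPE1 dox+ and 6.19 in wtAPE1 dox-, and 6.93 in vector dox+ and 6.70 in vector dox-. The ubAPE1 response was -0.74 for DNAJC10 (1.67-fold lower), -0.74 for DNAJC13 and -0.75 for DNAJC18 (1.68-fold lower), against 0.08, 0.02 and 0.29 for the same genes in wtAPE1 cells and 0.34, 0.24 and 0.27 in vector cells. The next lowest in the ubAPE1 line were DNAJC19, a subunit of the mitochondrial import motor, and DNAJC21, a ribosome biogenesis factor, both at -0.47, then DNAJC16 at -0.46 and DNAJC8 at -0.36. The highest was DNAJC30, a mitochondrial protein, at 0.35.

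Differences between the responses of 2 lines had no residual degrees of freedom, and comparisons that share a line are not independent of each other. For the ubAPE1 response minus the vector response, 8 of 46 members were at least 1.5-fold lower and 0 higher (13.2% of all rows in either direction, 9.74% lower). They were DNAJC10 (-1.10), DNAJC18 (-1.05), DNAJC13 (-0.99), HSPA4L (-0.90), DNAJC19 (-0.74), HSPA4 (-0.73), DNAJC21 (-0.72) and DNAJB4 (-0.61). For the ubAPE1 response minus the wtAPE1 response, 5 of 46 were lower (12.2% of all rows in either direction, 7.66% lower), namely DNAJC18 (-1.03), DNAJC10 (-0.81), HSPA4L (-0.76), DNAJC13 (-0.74) and HSPA13 (-0.65). For the wtAPE1 response minus the vector response, HSPA8 (0.80) and DNAJB1 (0.63) were higher, 2 of 46 (4.08% of all rows in either direction, 2.56% higher). As deposited, with no median subtracted, the count for the ubAPE1 response minus the wtAPE1 response was 13 (21.2% of all rows) and for the wtAPE1 response minus the vector response 6 (6.12%).

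Long genes had lower ubAPE1 responses than short ones across the array, and the members lay along the same gradient. The 9645 analysed rows with a length in the gene table (GRCh38.p14) were split into 4 groups of equal size by genomic length. From the shortest to the longest group, the members' median ubAPE1 response was 0.16 (10 members), -0.13 (14), -0.24 (16) and -0.25 (6), and that of all rows was 0.17, 0.05, -0.09 and -0.16. Spearman's rho between length and the ubAPE1 response was -0.49 over the 46 members and -0.41 over all rows, and these points share their 2 columns, so no p is given. In the wtAPE1 line rho was 0.15 over the members and 0.22 over all rows, and in the vector line it was -0.00 over the members and 0.15 over all rows. DNAJC10 and DNAJC13 are in the longest group, HSPA4L and DNAJC18 in the third and HSPA8 in the shortest. Set against rows of like length, the ubAPE1 response was -0.69 for DNAJC18, -0.58 for DNAJC10, -0.56 for DNAJC13 and -0.55 for HSPA4L. The members past 1.5-fold were then 2 of 46 (3.6% of all rows), DNAJC18 and DNAJC19 (-0.63), the second of which had been short of it. The median of the DNAJC class was then -0.11. For HSPA8 the response against rows of like length was 0.25 in the ubAPE1 line and 0.80 in the wtAPE1 line.

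**Figure D3:**
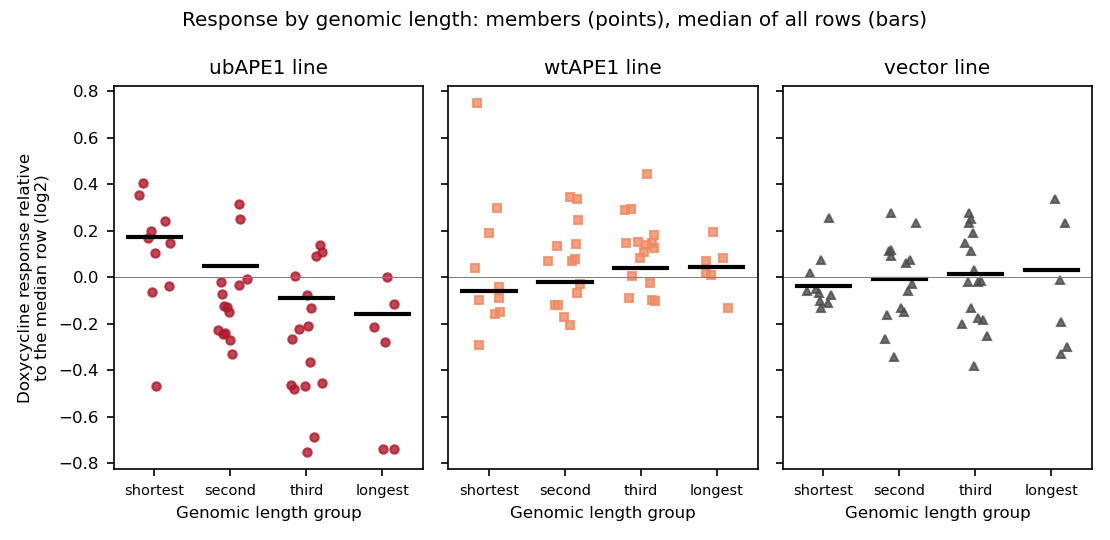
Doxycycline response (log2, relative to the median row) of the 46 members (points, jittered sideways) by group of genomic length in the ubAPE1, wtAPE1 and vector lines; bars mark the median of all analysed rows in the group. In the ubAPE1 line both members and bars descend from the shortest group (medians 0.16 and 0.17) to the longest (-0.25 and -0.16).

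Differences between lines were tested with limma, with the doxycycline states of a line standing in for its replicates and p-values adjusted over all 11619 rows. No member passed an adjusted p of 0.05. The count was 0 of 46 for the ubAPE1 line against the vector line (1.39% of all rows), 0 of 46 for the wtAPE1 line against the vector line (2.11%), 0 of 46 for the ubAPE1 line against the wtAPE1 line (0%) and 0 of 46 for the common doxycycline effect (0%). At an unadjusted p under 0.05 the counts were 6 of 46 (11.5% of all rows), 6 of 46 (17.1%), 0 of 46 (0.405%) and 0 of 46 (1.67%) in that order, so the members' shares were close to those of all rows. In these bulk samples fewer cells of a type and less RNA per cell cannot be told apart.

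Of the 6 members with an unadjusted p under 0.05 in the wtAPE1 line against the vector line, 4 were DNAJC genes, which make up 16 of the 46 (17.1% of all rows had such a p). Of the 6 in the ubAPE1 line against the vector line, 3 were DNAJC genes (11.5% of all rows). The others there were HSPA4L, CCT5 and DNAJB9, the last at -0.28 relative to the median row. As deposited the DNAJB9 difference was -0.36 ± 0.15 (SE; limma unadjusted p = 0.0465, adjusted p = 0.423). Line differences ran with gene length as well, with a Spearman's rho of -0.33 over the members and -0.27 over the 9645 rows with a length in the ubAPE1 line and of -0.40 and -0.34 in the wtAPE1 line, each against the vector line. DNAJC6, the clathrin-uncoating protein auxilin, had levels of 6.15 in ubAPE1 dox+ and 6.49 in ubAPE1 dox-, 6.18 in wtAPE1 dox+ and 6.10 in wtAPE1 dox-, and 6.84 in vector dox+ and 6.90 in vector dox-. The lines that carry APE1 did not overlap the vector line, and the difference was -0.47 ± 0.17 in the ubAPE1 line (SE; limma adjusted p = 0.203) and -0.58 ± 0.17 in the wtAPE1 line (adjusted p = 0.0701). DNAJC21 had levels of 7.32 in ubAPE1 dox+ and 7.91 in ubAPE1 dox-, 7.64 in wtAPE1 dox+ and 7.67 in wtAPE1 dox-, and 8.47 in vector dox+ and 8.28 in vector dox-. It did not overlap either, with -0.68 ± 0.20 in the ubAPE1 line (adjusted p = 0.15) and -0.57 ± 0.20 in the wtAPE1 line (adjusted p = 0.129). For HSPA4L the difference from the vector line was -0.61 ± 0.24 in ubAPE1 cells (adjusted p = 0.296) and -0.65 ± 0.24 in wtAPE1 cells (adjusted p = 0.154). For DNAJC10 it was -0.47 ± 0.27 in ubAPE1 cells (adjusted p = 0.509) and -0.67 ± 0.27 in wtAPE1 cells (adjusted p = 0.181). CCT5 and DNAJC1, a ribosome-associated protein of the endoplasmic reticulum membrane, were at -0.37 ± 0.17 and -0.41 ± 0.17 in ubAPE1 cells and at -0.42 ± 0.17 and -0.40 ± 0.17 in wtAPE1 cells, with limma adjusted p-values between 0.152 and 0.358. Against rows of like length DNAJC1 was at -0.26 in ubAPE1 and -0.23 in wtAPE1 cells. A p that misses the threshold does not show that the lines had the same level.

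Counts of called members depended on the fit. In the wtAPE1 line against the vector line, DNAJC6, DNAJC10, DNAJC21 and HSPA4L passed, all lower, after each column was centred on its median (4 of 46, with 5.65% of all rows), and also when the ubAPE1 line was left out (8.37% of all rows). In the ubAPE1 line against the vector line, DNAJC21 and HSPA4L passed after centring (2 of 46, with 4.64% of all rows). After centring limma gave each of these members the same SE of 0.18, so a gene's own spread did not enter. In the main fit the SE of the 4 genes ran from 0.17 for DNAJC6 to 0.27 for DNAJC10. The fit without the ubAPE1 line had 1 residual degree of freedom. By class, the median line difference of the DNAJC genes was -0.23 in the ubAPE1 line (11 of 16 below the median row) and -0.19 in the wtAPE1 line (13 of 16), where the median over all members was -0.00 and -0.09. The HSP70 and HSP110 class had medians of 0.14 and 0.01, CCT 0.00 and -0.06, DNAJA 0.07 and -0.10, DNAJB -0.08 and -0.11, and the mitochondrial pair 0.03 and 0.26, each in the ubAPE1 and then the wtAPE1 line. The DNAJC median in the ubAPE1 line was -0.065 when only rows above the 50th percentile were kept. The DNAJB medians lay above the median row, at 0.073 and 0.12, with no row filter.

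**Figure D4:**
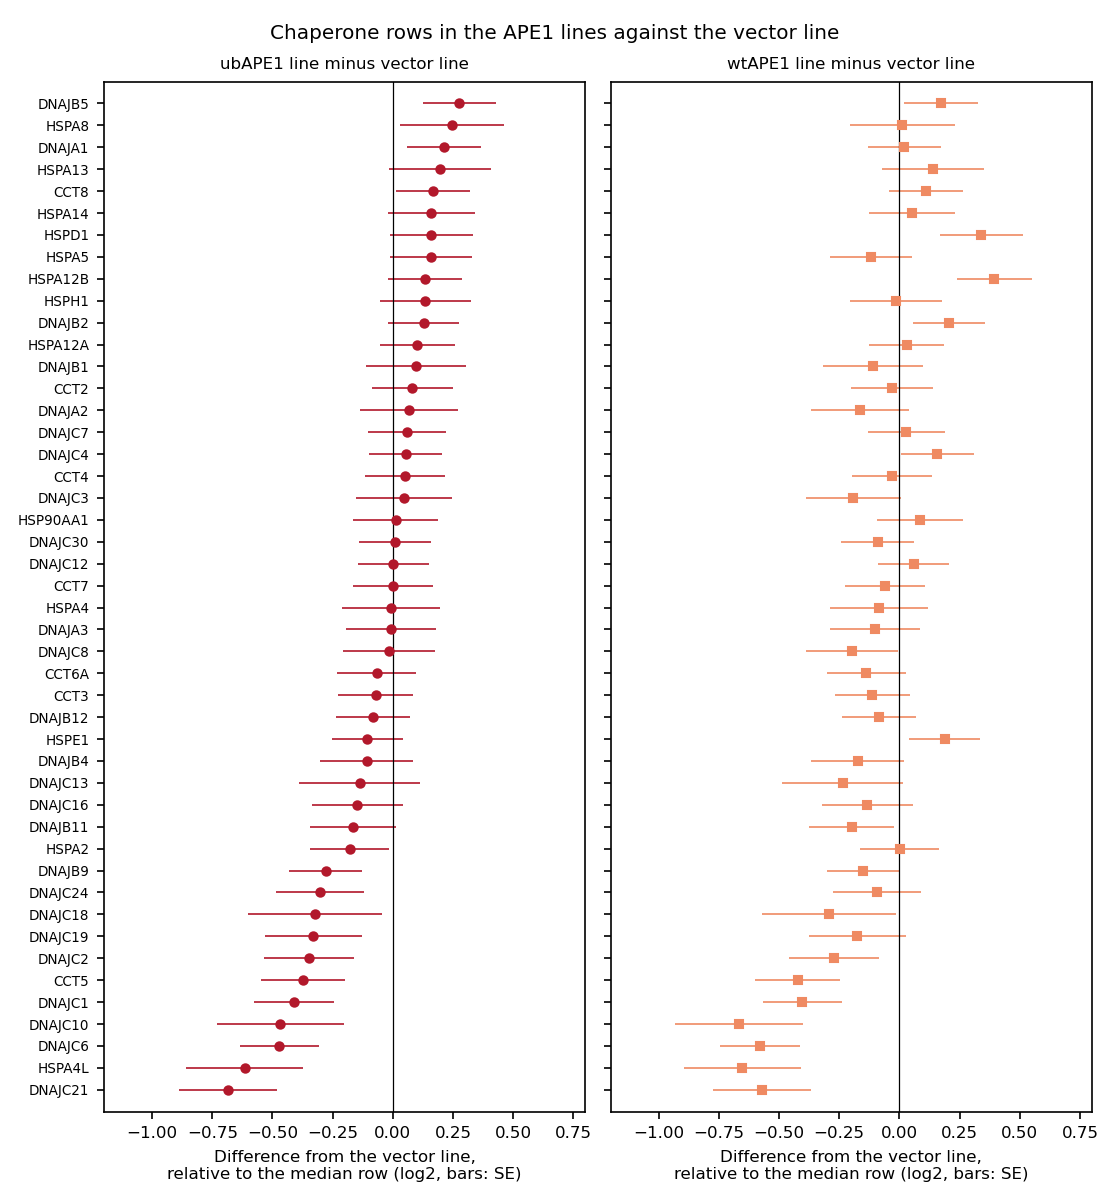
Line differences of the 46 analysed members (log2, relative to the median row; bars are the SE of the limma fit over 6 columns), ubAPE1 minus vector on the left and wtAPE1 minus vector on the right, in one order of genes. HSPA4L, DNAJC6 and DNAJC21 lie at the low end of both panels (-0.61, -0.47 and -0.68 on the left; -0.65, -0.58 and -0.57 on the right), and 0 of 46 members passed the adjusted test in either.

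Taken state by state, the ubAPE1 line differed from the vector line by more with doxycycline than without it. With doxycycline, 7 of 46 members were at least 1.5-fold lower in ubAPE1 than in vector cells (8.78% of all rows lower), and these were HSPA4L (-1.06), DNAJC21 (-1.04), DNAJC10 (-1.02), DNAJC18 (-0.85), DNAJC19 (-0.70), DNAJC13 (-0.63) and CCT5 (-0.61). Without doxycycline the count was 0 of 46 (2.93% of all rows lower). In the wtAPE1 line against the vector line, 5 of 46 members were at least 1.5-fold lower with doxycycline (4.64% of all rows lower) and 2 of 46 without it (5.14%). After each column was centred on its median, the wtAPE1 and vector means of 9 members lay at least 0.25 apart. The ubAPE1 dox+ column lay nearer to the wtAPE1 mean in all 9 of these, and the ubAPE1 dox- column lay nearer to the vector mean in 5 of 9. Among the 4393 rows that far apart, the ubAPE1 dox+ column was nearer to the vector mean in 6.21% and the ubAPE1 dox- column in 58.3%, so the members followed the whole array.

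Regulators and co-chaperones were read from lists of known partners of the members. In the main fit, 0 of their analysed genes passed limma's adjusted test in any of the 4 contrasts. Counts of calls depended on the fit for the members, and calls under the other fits are not given for these lists. Of the regulators 4 of 6 listed were analysed. HSF1, the main heat shock factor, had levels of 7.02 in ubAPE1 dox+ and 6.90 in ubAPE1 dox-, 7.02 in wtAPE1 dox+ and 7.23 in wtAPE1 dox-, and 6.99 in vector dox+ and 7.33 in vector dox-. HSF4 and HSF2BP had the widest line differences of the regulators, at 0.36 for HSF4 (wtAPE1 minus vector) and 0.29 for HSF2BP (ubAPE1 minus vector).

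Of the HSP90 co-chaperones 7 of 17 were analysed. STIP1, which links HSP70 to HSP90, had levels of 10.40 in ubAPE1 dox+ and 10.20 in ubAPE1 dox-, 10.29 in wtAPE1 dox+ and 9.88 in wtAPE1 dox-, and 9.96 in vector dox+ and 10.37 in vector dox-, and its response was 0.33 in each APE1 line and -0.37 in the vector line. NUDC had a ubAPE1 minus vector difference of -0.35 and CDC37L1 a wtAPE1 minus vector difference of -0.32. Of the HSP70 co-chaperones 12 of 13 were analysed, with median responses of -0.01 in the ubAPE1 line, 0.05 in the wtAPE1 line and 0.00 in the vector line. GRPEL2, a mitochondrial exchange factor, had the widest line difference of these (-0.43, wtAPE1 minus vector), followed by BAG1 (0.25). The GRPEL2 level was 8.59 in wtAPE1 dox+ and 7.99 in wtAPE1 dox-. Its response was 0.53 in the wtAPE1 line (rank 104 of 11619), higher than that of DNAJB1, -0.22 in the ubAPE1 line and 0.22 in the vector line.

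Of the CCT co-factors 12 of 15 were analysed. TBCA, a tubulin-folding cofactor, was the list gene with the largest ubAPE1 response, with levels of 7.64 in ubAPE1 dox+ and 7.01 in ubAPE1 dox-, 7.15 in wtAPE1 dox+ and 7.37 in wtAPE1 dox-, and 7.02 in vector dox+ and 7.44 in vector dox-. Its response was 0.75 in the ubAPE1 line (rank 32 of 11619), -0.30 in the wtAPE1 line and -0.37 in the vector line. PFDN5, a prefoldin subunit that delivers clients to CCT, had levels of 7.65 in ubAPE1 dox+ and 7.91 in ubAPE1 dox-, 7.61 in wtAPE1 dox+ and 7.97 in wtAPE1 dox-, and 7.38 in vector dox+ and 8.02 in vector dox-. Each dox+ column of PFDN5 was below the dox- column of its line, and the vector response was -0.59.

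Of the small heat shock proteins 3 of 10 were analysed, HSPB1, HSPB6 and CRYAA. All 3 had a ubAPE1 response above the median row and a wtAPE1 response below it (medians 0.42 and -0.27, against 0.01 in the vector line). These directions were not particular to them. The 4 fibroblast and smooth muscle markers (medians 0.21 and -0.11) and the 2 blood cell markers (0.31 and -0.20) all shared them. The kidney epithelium medians were 0.13 and -0.09, and the neuron medians went the other way (-0.08 and 0.23). The share of all rows with these directions was not counted. HSPB1, an ATP-independent chaperone, had levels of 7.30 in ubAPE1 dox+ and 6.98 in ubAPE1 dox-, 7.26 in wtAPE1 dox+ and 7.33 in wtAPE1 dox-, and 6.56 in vector dox+ and 6.60 in vector dox-. Both vector columns lay below the 4 APE1-line columns, and the difference from the vector line was 0.64 ± 0.16 in ubAPE1 cells (limma adjusted p = 0.186) and 0.87 ± 0.16 in wtAPE1 cells (adjusted p = 0.0725). Of the J-domain genes with other symbols SEC63, which works at the translocon of the endoplasmic reticulum, and GAK, an auxilin relative, were analysed, and the widest difference from the vector line was -0.49 for SEC63 (wtAPE1 cells) and -0.13 for GAK (ubAPE1 cells).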

How the data were processed

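The deposited table holds 1 column of log2 levels per group, averaged by the authors over 3 biological replicates, per the labels. That the scale is log2 follows from the values. How the authors summarised and normalized the probes is not given in the sources used here, and the build is hg 18, per the submitters' processing notes. Gene symbols came from the platform annotation, and all 54 member gene IDs were found in the gene table (GRCh38.p14), where 0 symbols differed. Rows with a mean at or above the 25th percentile were kept (11619 of 15492).

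Tests used limma 3.58.1 in R 4.3.3 (lmFit, eBayes) with an additive model of line and doxycycline (2 residual and 6.28 prior degrees of freedom), a median residual SD of 0.151 log2, and Benjamini-Hochberg adjustment over all kept rows at 0.05. Because the doxycycline states of each line serve as its replicates, p-values measure evenness across states. Adjusted and unadjusted p-values belong to differences as deposited, also where the printed size is relative to the median row. The number of arrays limits the precision.

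The rule for members rests on gene symbols, but the members, lists and alternatives were chosen with earlier results of these data known. Values in every column are given for HSPA8, for members past 1.5-fold in a response, and for the 2 members of each class with the widest difference between lines or responses. From each partner list, genes past 1.5-fold or else the 2 with the widest line difference are named, and others (DNAJC6, DNAJC21, STIP1, HSF1 and HSPB1 with all columns) were added after their values were seen. Alternatives were other row filters, quantile normalization, centred columns, a floor at the 10th percentile (4.09 log2), an intensity trend with robust eBayes, 1 row per gene, fits without a term or without a line, other fold limits, no median subtracted, and rows of like gene length (20 bins).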

Additional observations from a re-analysis of the deposited data

Results flagged for a closer look

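In the comparisons below a gene responded above the median row in one line and below it in the other, by at least 1.5-fold between them. Each rests on averaged columns, and these differences were not tested.

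For the ubAPE1 response minus the vector response, the difference was -1.10 for DNAJC10, -1.05 for DNAJC18, -0.99 for DNAJC13, -0.90 for HSPA4L, -0.74 for DNAJC19, -0.73 for HSPA4, -0.72 for DNAJC21 and -0.61 for DNAJB4. For the ubAPE1 response minus the wtAPE1 response it was -1.03 for DNAJC18, -0.81 for DNAJC10, -0.76 for HSPA4L, -0.74 for DNAJC13 and -0.65 for HSPA13. For the wtAPE1 response minus the vector response it was 0.80 for HSPA8 and 0.63 for DNAJB1.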

How the results depend on the processing

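No paired analysis was possible because each group is 1 averaged column with no replicate numbers; the line term of the fit already sets each dox+ column against the dox- column of its line. Under the alternatives 289 of 294 class medians, 32 of 38 counts of called members and 33 of 54 counts by size stayed near their values. So did 31 of 34 values of the responses past 1.5-fold, and none of those responses reversed in direction. A class median or a response counted as near its value if it moved by less than 0.151 log2, and a count if it changed by at most 1.5-fold. Many class medians are smaller than 0.151, so a change of sign could also count as near. Some settings, such as 1 row per gene, leave the analysed members unchanged. Smaller responses could change sign. Against rows of like length the ubAPE1 response was 0.04 for DNAJB1 (-0.07 against the median row) and -0.01 for HSPA5 (0.15 against the median row). For the settings that change values below, the cause was not tested, except where fewer rows or samples or another limit enter by construction. Members called in the wtAPE1 line against the vector line numbered 4 with columns centred (5.65% of all rows) and 4 without the ubAPE1 line (8.37%; DNAJC6, DNAJC10, DNAJC21, HSPA4L in each), and 1 with quantile normalization (4.8%) and 1 without a doxycycline term (3.43%; DNAJC6 in each), against 0. In the ubAPE1 line against the vector line they numbered 2 with columns centred (4.64%) and 1 with quantile normalization (3.74%), against 0. At a looser limit (a ratio of 5 to 4) the counts by size were 13 for the ubAPE1 (28.6% of all rows), 4 for the wtAPE1 (10.2%) and 4 for the vector response (9.13%), 15 for ubAPE1 minus vector (39%), 24 for ubAPE1 minus wtAPE1 (45%) and 14 for wtAPE1 minus vector (22.1%). At 2-fold they were 0 for the ubAPE1 (0.155% of all rows) and 0 for the wtAPE1 response (0.0602%). At that limit they were 2 for ubAPE1 minus vector (1.34%), 1 for ubAPE1 minus wtAPE1 (0.706%) and 0 for wtAPE1 minus vector (0.293%). With no median subtracted they were 8 for the ubAPE1 response (8.94%), 13 for ubAPE1 minus wtAPE1 (21.2%) and 6 for wtAPE1 minus vector (6.12%). Against rows of like length they were 2 for the ubAPE1 response (3.6%), 3 for ubAPE1 minus wtAPE1 (9.53%) and 1 for wtAPE1 minus vector (4%). With quantile normalization they were 0 for the wtAPE1 response (0.973%) and 1 for wtAPE1 minus vector (3.98%), and HSPA8 then had a wtAPE1 response of 0.49. For ubAPE1 minus wtAPE1 the count was 8 with no row filter (13.9%) and 3 with a filter at the 50th percentile (11.2%). Against rows of like length the median ubAPE1 response was -0.11 for DNAJC and -0.044 for the mitochondrial pair. With no row filter the DNAJB median was 0.073 in the ubAPE1 line and 0.12 in the wtAPE1 line against the vector line, and at the 50th percentile the DNAJC median was -0.065 in the ubAPE1 line against the vector line. Without known replicate spread, no difference between single columns can be set against an error.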
